A study of Mus musculus with 6 samples.

Results

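The core interferon-stimulated genes *Ifit1*, *Ifit2*, *Ifit3*, *Isg15*, *Rsad2*, *Irf7*, *Usp18*, *Oasl2* and *Bst2* were followed in untreated mouse lung with and without isthmin-1 (ISM1), a secreted protein made in lung and airway. The genes were taken by symbol, from a list chosen with earlier results of these data known. All 9 were found among the 54532 genes of the count table and among the 18689 genes tested. The study compared wild-type (WT) C57BL/6J mice, which were bought in, with ISM1-/- mice, which were bred by the study on the same strain background, both at 2 months of age. Each genotype had 3 libraries, made from whole lungs rinsed of blood and with no challenge given. Source of the animals and genotype cannot be told apart in this design. The methods describe 1 knockout line. The labels number the libraries but do not state that each came from a separate mouse, so p-values measure the spread between these libraries.

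Interferons are cytokines that cells release when they sense foreign or misplaced nucleic acid. Type I interferons bind a receptor made of IFNAR1 and IFNAR2, whose kinases JAK1 and TYK2 activate transcription factors that join IRF9 and bind the interferon-stimulated response element (ISRE) in the promoters of a set of antiviral genes. Interferon gamma uses another receptor, and its response acts through the gamma-activated sequence (GAS). In lung, interferon-stimulated genes are known for a low tonic level in healthy tissue and a steep rise on viral infection.

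The promoter sequences are shown because the ISRE is what the family is known for. RefSeq windows on GRCm38.p6, from 250 bases before to 50 bases after the transcription start, were at hand for 8 of the 9 genes and not for *Usp18*. The ISRE core was searched as GAAA, any 2 bases, GAAA on both strands (TTTC, any 2 bases, TTTC on the other), and 5 of the 8 genes held it, against 3.99% of the 27025 genes with a window and 3.44% of all 32851 windows. The stretches with the core are given 5′ to 3′ in the direction of transcription, with the core in capitals and 10 flanking bases on each side.
*Ifit1*, chr19:34640775-34640823, plus strand: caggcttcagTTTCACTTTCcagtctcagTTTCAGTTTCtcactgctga
*Ifit3*, chr19:34583363-34583426, plus strand: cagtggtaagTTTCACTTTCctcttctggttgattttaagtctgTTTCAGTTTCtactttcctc
*Isg15*, chr4:156200865-156200906, minus strand: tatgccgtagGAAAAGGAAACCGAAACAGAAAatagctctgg
*Rsad2*, chr12:26456553-26456582, minus strand: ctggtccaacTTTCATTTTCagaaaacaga
*Bst2*, chr8:71537577-71537612, minus strand: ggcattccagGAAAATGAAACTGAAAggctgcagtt
*Isg15* held 3 overlapping cores that began 78, 72 and 66 bases before the start. *Bst2* held 2 overlapping cores, at 130 and 124 bases before the start. *Ifit1* and *Ifit3* held 2 separate cores each, and *Rsad2* held 1, at 120 bases before the start. These letters were not in the windows of *Ifit2* (2 start sites), *Irf7* and *Oasl2*. The GAS core TTCNNNGAA, which reads the same on both strands, was found in *Bst2*, where it overlaps the first ISRE core, and in 1 of the *Ifit2* windows, against 9.55% of genes. A match of letters is a description of the sequence and not evidence of a bound site.

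**Figure D1:**
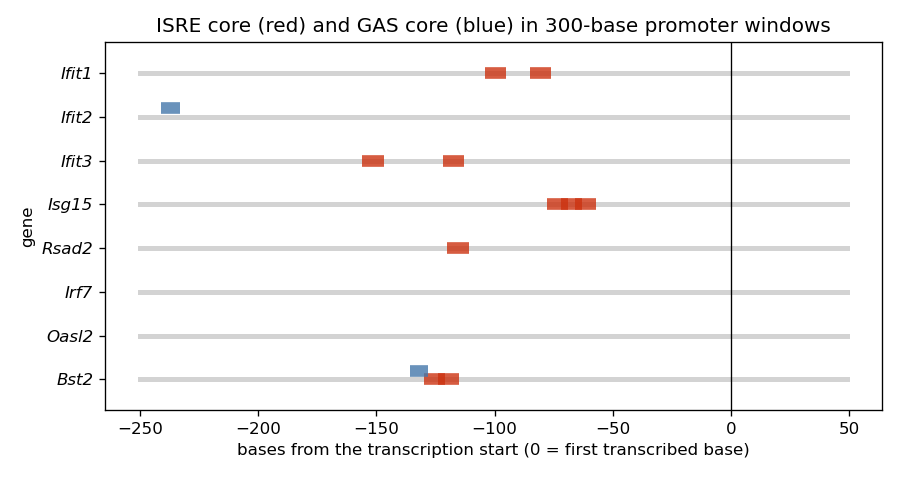
Positions of the ISRE core (red) and the GAS core (blue) in the promoter windows of 8 genes; the x axis is the distance in bases from the transcription start and each grey line is a window, with both *Ifit2* windows drawn on 1 line. The ISRE cores of 5 genes all lie upstream of the start, within 156 bases of it.

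Total counts per library ranged from 37606133 to 42345042, and TMM scaling factors, which adjust for differences in RNA composition, from 0.985 to 1.005. *Ism1* itself was still counted in the libraries labelled ISM1-/-, at 78.9 ± 2.88 TMM-scaled counts scaled to library size (CPM, counts for each 1000000 counted) in WT and 69.1 ± 5.72 in ISM1-/- (SD, n = 3). Its log2 fold change was −0.19 (edgeR quasi-likelihood test, adjusted p = 0.217 by the Benjamini-Hochberg method over all genes tested), so total *Ism1* counts do not check the labels. The summed CPM of 7 alveolar type 2 markers was 22820 to 24340 and that of 6 alveolar type 1 markers 3091 to 4401, so both alveolar cell types were represented. WT replicate 1 stood apart from the other libraries, with 1647 CPM summed over 10 cardiomyocyte markers against 541 and 646 in the other WT libraries and 295 to 574 in ISM1-/-, and with the lowest alveolar type 1 sum. ISM1-/- replicate 3 also stood apart within its genotype. Its counts differed from those of ISM1-/- replicates 1 and 2 by a chi-square over degrees of freedom of 21.9 and 18.2, against 8.09 between those replicates, and its summed CPM of 7 adipocyte markers was 119 against 41.9 and 50.02. For WT replicate 1 the same measure was 16.3 and 17.4, against 5.61 between WT replicates 2 and 3. Results for the interferon-stimulated genes are therefore given with and without each of these libraries.

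All 9 genes were expressed in every library, without any challenge. Per length and depth, as the deposited FPKM (fragments per kilobase and sequencing depth), *Bst2* had the highest level, at 131 ± 11.7 (SD over 6 libraries), then *Oasl2* at 62.2 ± 8.29 and *Ifit3* at 34.3 ± 4.81 FPKM. The ranges of *Bst2*, *Oasl2* and *Ifit3* did not overlap. The FPKM of *Oasl2* used a length of 1328 bases where 6374 are listed, and that of *Bst2* 602 where 903 are listed. For *Ifit3* both lengths were 1745 bases, so the place of *Oasl2* in this order depends on the length used. *Irf7* (24.1 ± 4.71 FPKM) and *Usp18* (23.6 ± 1.70 FPKM) did not differ beyond their spread, and *Irf7* was the higher in only 2 of 6 libraries. *Ifit2* followed at 18.2 ± 2.26, *Isg15* at 14.0 ± 2.73 and *Ifit1* at 10.7 ± 1.47 FPKM, with ranges that overlapped those of their neighbours in this order. *Usp18* was above *Ifit2* in 5 of 6 libraries, and *Ifit2* above *Isg15* and *Isg15* above *Ifit1* in 6 of 6. *Rsad2* was lowest, at 3.40 ± 0.692 FPKM, and its range lay below that of all others.

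None of the 9 genes passed the test between genotypes (edgeR, adjusted p from 0.165 to 0.970), where 4.72% of all genes tested passed an adjusted p under 0.1. At an unadjusted p under 0.05, 2 of the 9 passed, *Ifit2* and *Ifit3*, against 15.8% of all genes. DESeq2 called 1 of the 9, *Ifit2*, against 6.88% of all genes. The mean was higher in ISM1-/- for 8 of the 9 genes, against 51.2% of all genes, and the median log2 fold change was 0.15, against 0.0043. The 9 genes rose and fell largely together across libraries, so they are not 9 separate observations. The genotypes did not overlap in 1 gene, *Ifit2*, against 9.33% of all genes that were higher in ISM1-/- without overlap. The 95% intervals of the fold changes reached from 0.827-fold to 1.49-fold, so differences up to that size are not excluded by these libraries. In bulk lung, fewer cells of a type and less RNA per cell cannot be told apart.

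**Figure D2:**
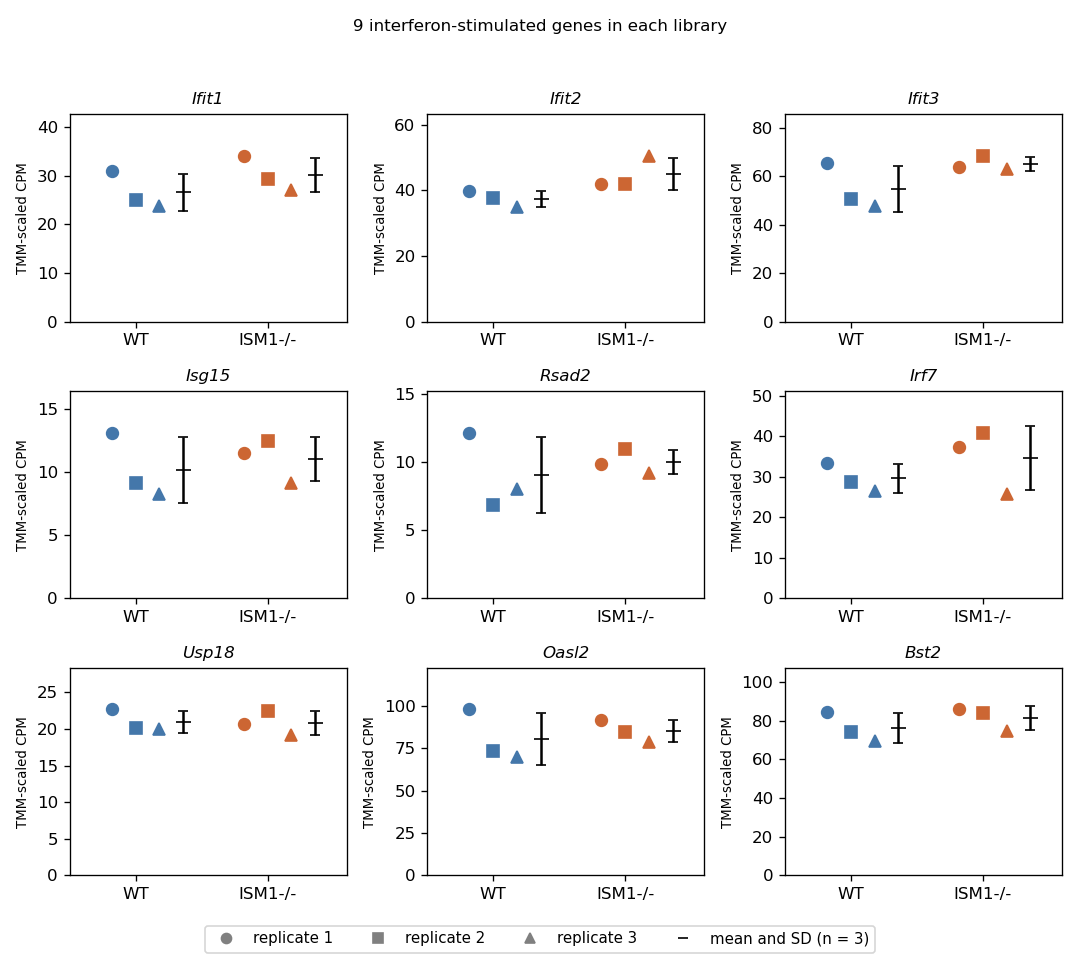
TMM-scaled CPM (y axis, from 0) of each of the 9 genes in each library, by genotype; symbols mark the replicate number and bars the mean and SD of 3 libraries. WT replicate 1 is above the other WT libraries in all 9 panels, and the genotypes are separate only for *Ifit2*.

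The IFIT proteins are tetratricopeptide repeat proteins that bind RNA or one another, and their genes lie in a cluster on chromosome 19. *Ifit2* (chr19:34550694-34576419, GRCm38, plus strand), a partner of the other IFIT proteins, had 39.7, 37.6 and 34.8 CPM in WT and 42.1, 42.1 and 50.6 CPM in ISM1-/-. Every ISM1-/- library was above every WT library, by a narrow margin except for ISM1-/- replicate 3. The fold change was 1.20 with a 95% interval of 1.05 to 1.38 (log2 0.27, SE 0.0878, edgeR adjusted p = 0.165).

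*Ifit3* (chr19:34583531-34588731, plus strand), of the same cluster, had 65.5, 50.8 and 47.9 CPM in WT and 63.7, 68.5 and 63.2 CPM in ISM1-/-. WT replicate 1 lay among the ISM1-/- libraries and the other WT libraries below them. The log2 fold change was 0.25 (SE 0.107, edgeR adjusted p = 0.288). *Ifit3* shares 296 of its 1596 transcript windows of 150 bases (18.5%) with its near copy *Ifit3b*, which had mean levels of 16.4 CPM in WT and 18.7 CPM in ISM1-/- (log2 fold change 0.19, edgeR adjusted p = 0.381), so the split of reads between them is uncertain.

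*Ifit1* (chr19:34640871-34650009, plus strand), which binds RNA without host-type cap methylation, had 31.0, 25.1 and 23.9 CPM in WT and 34.1, 29.4 and 27.1 CPM in ISM1-/-. Here the genotypes overlapped through WT replicate 1. The log2 fold change was 0.18 (SE 0.114, edgeR adjusted p = 0.496). It shares 31 of 2507 windows (1.24%) with *Ifit1bl2*.

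*Irf7* (chr7:141262706-141266481, minus strand) encodes the transcription factor that amplifies type I interferon production. It had 33.4, 28.7 and 26.6 CPM in WT and 37.3, 40.9 and 25.6 CPM in ISM1-/-. The ISM1-/- libraries were split, with replicates 1 and 2 above all other libraries and replicate 3 below all of them. The log2 fold change was 0.23 (SE 0.154, edgeR adjusted p = 0.535). *Irf7* overlaps *Phrf1* on the other strand by 45 bases.

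*Isg15* (chr4:156199424-156200818, minus strand) encodes a ubiquitin-like protein that is attached to other proteins. Its levels were 13.1, 9.11 and 8.22 CPM in WT and 11.5, 12.5 and 9.12 CPM in ISM1-/-, with WT replicate 1 the highest of all. The log2 fold change was 0.12 (SE 0.178, edgeR adjusted p = 0.811). *Usp18* (chr6:121245906-121270917, plus strand) encodes the enzyme that removes ISG15 and also dampens signalling at IFNAR2. It had 22.7, 20.2 and 20.0 CPM in WT and 20.6, 22.5 and 19.2 CPM in ISM1-/-, and it was the only one of the 9 genes with a log2 fold change below 0, at −0.01 (SE 0.0852, edgeR adjusted p = 0.970). Its highest library was 1.18 times its lowest, the narrowest range of the 9. *Usp18* overlaps the long non-coding gene *Gm44148* on the opposite strand (mean of 24.2 counts).

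*Rsad2* (chr12:26442746-26456452, minus strand) encodes viperin, an enzyme that makes a chain-terminating nucleotide. It had 12.2, 6.89 and 8.04 CPM in WT and 9.88, 11.0 and 9.20 CPM in ISM1-/-. The WT libraries enclosed the ISM1-/- libraries, and the range of 1.77 times from lowest to highest was the widest of the 9 genes (log2 fold change 0.15, SE 0.187, edgeR adjusted p = 0.768).

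*Oasl2* (chr5:114896936-114912234, plus strand), of the oligoadenylate synthetase family, had 98.0, 73.2 and 69.9 CPM in WT and 91.5, 84.9 and 78.7 CPM in ISM1-/-. Again WT replicate 1 was the highest and the other WT libraries the lowest (log2 fold change 0.08, SE 0.118, edgeR adjusted p = 0.809). *Bst2* (chr8:71534255-71537456, minus strand) encodes tetherin, which holds budding virus at the cell surface. It had 84.5, 74.4 and 69.3 CPM in WT and 85.9, 83.8 and 74.6 CPM in ISM1-/-, which overlap (log2 fold change 0.10, SE 0.0846, edgeR adjusted p = 0.641).

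**Figure D3:**
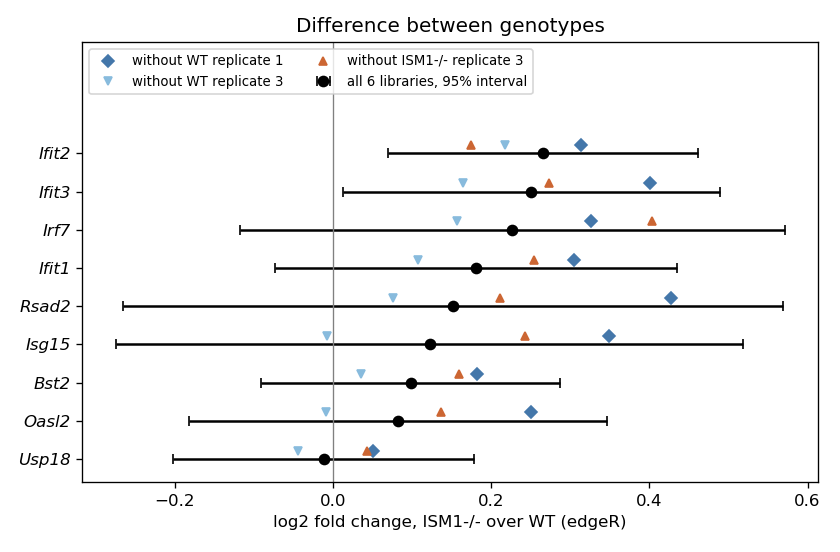
Log2 fold change of ISM1-/- over WT (x axis, edgeR) for each gene, with its 95% interval from all 6 libraries (black) and its value without WT replicate 1, WT replicate 3 or ISM1-/- replicate 3 (coloured). The black intervals of *Ifit2* and *Ifit3* lie above 0 and the other 7 include 0; without WT replicate 1 all 9 values are above 0.

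The mean of the 9, taken as log2(CPM + 0.5) minus each gene's mean over the 6 libraries, was 0.16, −0.17 and −0.22 in WT replicates 1, 2 and 3 and 0.12, 0.15 and −0.05 in ISM1-/- replicates 1, 2 and 3. WT replicate 1 was the highest library for 4 of the 9 genes, and WT replicate 3 was the lowest for 6. The genotypes therefore overlapped in this mean, with WT replicate 1 above every ISM1-/- library, and the genotype means differed by 0.15, less than the range within WT. The median ratio of highest to lowest library was 1.43 for the 9 genes, 1.31 for all genes tested and 1.26 for the 15880 genes with a WT mean of at least 1 CPM.

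**Figure D4:**
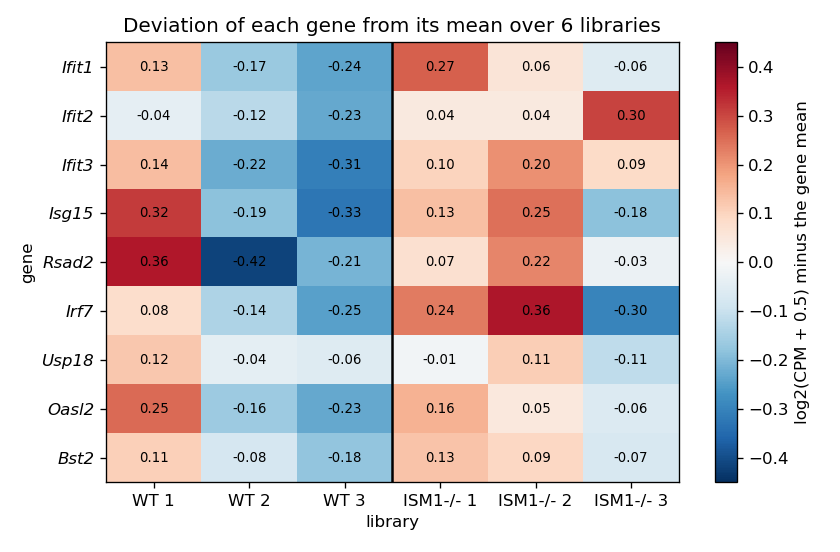
Deviation of each gene (rows) in each library (columns) from its mean over 6 libraries, on the log2(CPM + 0.5) scale. WT replicates 2 and 3 are below the mean for all 9 genes, and ISM1-/- replicate 2 is above it for 9 of 9.

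Without WT replicate 1 the median log2 fold change of the 9 genes was 0.31 and all 9 were above 0. *Ifit3* then passed the test (log2 fold change 0.40, edgeR adjusted p = 0.0354), as 3.62% of all genes did in that fit. In a comparison added after the data were seen, 7 of the 9 genes were then higher in every ISM1-/- library than in both remaining WT libraries, against 15.0% of all genes. That count was 2 of 9 without ISM1-/- replicate 3 and 1 of 9 without each of the other 4 libraries in turn. WT replicates 2 and 3 were below the gene mean for all 9 genes, so leaving out WT replicate 1 shifts the genes together. The 7 genes are therefore not separate observations, and only 2 WT libraries stand behind them. Without ISM1-/- replicate 3 the median log2 fold change was 0.21, and without each of the other 4 it lay between 0.075 and 0.092. Without ISM1-/- replicate 3, *Irf7* passed (log2 fold change 0.40, edgeR adjusted p = 0.0581), where 7.91% of all genes did. None of the 9 passed when WT replicate 2, WT replicate 3, ISM1-/- replicate 1 or ISM1-/- replicate 2 was left out, where 0.806%, 1.83%, 1.33% and 1.40% of all genes did.

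Of the interferons themselves, 19 of 21 genes, among them *Ifnb1* and every interferon alpha gene listed, had 0 counts in all 6 libraries. A count of 0 allows up to 3 counts, or 0.0708 to 0.0798 CPM depending on the library, for counting error only, and how reads shared within this family were counted is not given in the sources used here. *Ifng*, the gene of interferon gamma, had 9, 6 and 5 counts in WT and 16, 5 and 12 in ISM1-/-, and *Ifnz* had at most 2 counts in a library. No ligand reached the level needed for testing.

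None of the 6 receptor chains passed the test, and their log2 fold changes lay between −0.04 and 0.11. *Ifnar1* had 115, 110 and 101 CPM in WT and 107, 114 and 104 CPM in ISM1-/- and *Ifnar2* 59.9 to 64.3 CPM over all 6 libraries. The receptor chains for gamma (*Ifngr1*, 0.08, and *Ifngr2*, 0.05) and lambda interferons (*Ifnlr1*, −0.02, and *Il10rb*, 0.11) had log2 fold changes of the same small size. These chains varied little between libraries, with a median highest-to-lowest ratio of 1.12.

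None of the 11 JAK-STAT and IRF genes passed. *Irf9*, a DNA-binding part of the factor that recognises the ISRE, was higher in every ISM1-/- library (84.8, 75.4 and 78.0 CPM) than in every WT library (72.4, 68.3 and 67.2 CPM), with a log2 fold change of 0.20 (SE 0.0653, edgeR adjusted p = 0.167). *Stat2* had a log2 fold change of 0.05. The kinases *Jak1*, *Jak2* and *Tyk2* had log2 fold changes of 0.06, 0.00 and 0.00. *Irf1* was at 0.19, *Irf2* at 0.12, *Irf3* at 0.07, *Irf5* at −0.02 and *Irf8* at 0.04 on the same scale.

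Of the enzymes that attach ISG15 to proteins, none of 4 passed. *Uba7*, which activates ISG15, had a log2 fold change of −0.02, the carrier enzyme *Ube2l6* 0.01, and the ligases *Herc6* and *Trim25* 0.12 and 0.07. None of 15 nucleic acid sensors and adaptors passed, of which 13 had a log2 fold change above 0. The genes of this list with the highest CPM, *Ddx58* (RIG-I), *Tbk1*, *Traf3* and *Ifih1* (MDA5), had log2 fold changes of 0.14, 0.08, 0.04 and 0.07. None of the 9 tested brakes on the pathway passed. *Samhd1*, *Usp25*, *Pias1* and *Adar*, the highest of them, had log2 fold changes of 0.15, 0.00, 0.11 and 0.08, and *Trex1* was listed with 0 counts in all libraries. How reads shared between genes were counted is not given in the sources used here, so that 0 does not show that *Trex1* is silent.

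Among 58 further genes known mainly from the type I response, 3 rose in ISM1-/- and none fell, where 1.38% of all genes tested rose and 3.34% fell. *Oas2*, an oligoadenylate synthetase, had 17.6, 14.2 and 15.8 CPM in WT and 21.6, 20.4 and 20.4 CPM in ISM1-/- (log2 fold change 0.39, SE 0.0900, edgeR adjusted p = 0.0541). *Epsti1* had 10.6, 8.67 and 9.41 CPM in WT and 16.1, 12.0 and 12.7 CPM in ISM1-/- (log2 fold change 0.51, SE 0.130, edgeR adjusted p = 0.0791). *Ifi209*, of the HIN-200 family, had 23.3, 19.9 and 21.3 CPM in WT and 31.9, 27.5 and 26.4 CPM in ISM1-/- (log2 fold change 0.41, SE 0.0910, edgeR adjusted p = 0.0488). The genotypes did not overlap for these 3 genes, which were selected by their p-values. Of all 58 genes, 7 were higher in ISM1-/- without overlap, against 9.33% of all genes tested. Over the 58 genes, 49 had a log2 fold change above 0, with a median of 0.09. The most abundant, *Ly6e*, *Rnf213*, *Shisa5* and *Helz2*, did not pass, at log2 fold changes of −0.12, 0.04, 0.11 and 0.15. These 3 calls were lost when WT replicate 2, WT replicate 3, ISM1-/- replicate 1 or ISM1-/- replicate 2 was left out (0 calls over all pathway lists each). In those fits 0.806%, 1.83%, 1.33% and 1.40% of all genes passed. Of the 134 genes tested in the pathway lists, 9 passed without WT replicate 1 and 6 without ISM1-/- replicate 3. The shares of all genes were then 3.62% and 7.91%.

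The genes known mainly from the interferon gamma response were guanylate-binding proteins, immunity-related GTPases and antigen processing genes. They were high and low in the same libraries as the core genes except in ISM1-/- replicates 2 and 3. None of 31 passed, 17 had a log2 fold change above 0, and the median was 0.02. Their mean deviation was 0.52, −0.25 and −0.36 in WT replicates 1, 2 and 3 and 0.31, −0.26 and 0.03 in ISM1-/- replicates 1, 2 and 3. WT replicate 1 was the highest library for 24 of the 31, and the median highest-to-lowest ratio was 1.93. ISM1-/- replicate 2, above the mean for all 9 core genes, was above the mean for only 2 of these 31. ISM1-/- replicate 3 was above the mean for 2 of the 9 core genes and for 18 of these 31, with both mean deviations near 0. *B2m*, the light chain of MHC class I, had 1129, 811 and 798 CPM in WT and 1193, 928 and 954 CPM in ISM1-/-. *Gbp4* had 214, 109 and 93.5 CPM in WT and 188, 109 and 149 CPM in ISM1-/-, and *Tapbp* and *Gbp9* had log2 fold changes of −0.05 and 0.05.

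**Figure D5:**
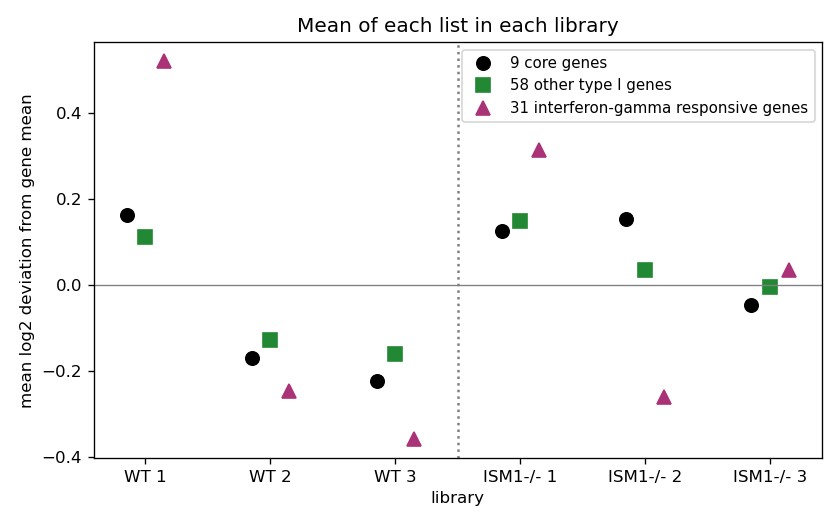
Mean deviation from the gene mean (y axis, log2(CPM + 0.5) scale) of the 9 core genes, 58 other type I genes and 31 interferon gamma responsive genes in each library (x axis). All 3 lists are high in WT replicate 1 and ISM1-/- replicate 1 and low in WT replicates 2 and 3, and they part in ISM1-/- replicate 2, at 0.15 for the core genes and −0.26 for the gamma list.

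Markers of several immune cell types also differed between the genotypes. The summed CPM of 9 B and plasma cell markers was 214 to 240 in WT and 316 to 497 in ISM1-/- (5 of 9 rose, where 1.38% of all genes tested rose), and that of 10 natural killer and T cell markers 52.7 to 76.9 and 88.6 to 129 (4 of 10 rose). The 13 neutrophil markers (11 tested) summed to 208 to 236 CPM in WT and 234 to 298 CPM in ISM1-/- with 5 higher. These sums overlapped, and *Lcn2* and *Ltf* made up most of them. *Lcn2* had a log2 fold change of 0.02. *Ltf* was not called but was lower in every ISM1-/- library than in every WT library (log2 fold change −0.32). The 7 patrolling monocyte markers summed to 1398 to 1489 CPM in WT and 1538 to 1638 CPM in ISM1-/- with none called. Most of that sum was *Ace* alone, at 1269 to 1367 CPM in WT and 1384 to 1466 CPM in ISM1-/-, so it mainly follows that gene. Of 10 markers of plasmacytoid dendritic cells, a main source of type I interferon, 1 rose (*Spib*). They summed to 272 to 309 CPM in WT and 303 to 305 CPM in ISM1-/-. *Tcf4* made up most of that sum, at 224.5 to 246.5 CPM in WT and 234.6 to 256.9 CPM in ISM1-/-. No marker in these lists was at 0 in all libraries. All 7 adipocyte markers fell, where 3.34% of all genes tested fell, from 212 to 267 CPM summed in WT to 41.9 to 119 CPM in ISM1-/-. Their part in the values of the interferon-stimulated genes was not tested.

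The genes whose log2(CPM + 0.5) most resembled the mean of the 9 genes over the 6 libraries, among 15867 genes of at least 1 CPM, were *4930518I15Rik*, *Pcdh18*, *Rtn1*, *Tfap4*, *Pag1*, *Gm47920*, *Camk1*, *D930048N14Rik*, *Ffar1* and *P2ry10b*, at Pearson correlations of 0.980 to 0.993. After removal of the genotype means they were *Dhtkd1*, *Slc25a23*, *Polr2a*, *Pag1*, *Tfap4*, *Sema4c*, *5930430L01Rik*, *Prickle1*, *4930518I15Rik* and *Zfp39*. None of these is in the interferon lists. The median correlation with the mean of the 9 was 0.67 for the other type I genes, 0.66 for the gamma list, 0.78 for 7 patrolling monocyte markers, 0.03 for the receptor chains and −0.03 for all 15867 genes. With only 6 points that share libraries and depth, these values describe the libraries and carry no test.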

How the data were processed

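RNA was extracted from perfused whole lung for 3 WT and 3 ISM1-/- libraries, and poly-A enriched, strand-specific libraries were sequenced in pairs according to the study's methods, while the labels give poly-A capture or ribosomal RNA removal. STAR and GRCm38 (mm10) are named in the submitters' processing notes. The counting program, annotation and strand setting are not given in the sources used here. The authors deposited whole-number counts per gene and FPKM, both without replicates pooled. For 17146 of 31946 genes with a count, the deposited FPKM used a length other than that listed in the table (for *Irf7* 1330 in place of 3776 bases), so FPKM ranks between genes depend on that choice.

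Counts were tested with edgeR 4.0.16 (R 4.3.3) by the quasi-likelihood test with TMM scaling on genes of at least 0.5 CPM in at least 1 library, which is the study's filter, and called at a Benjamini-Hochberg adjusted p under 0.1 over all 18689 genes. Intervals are 95% intervals of the log2 fold change. DESeq2 1.42.0, which the study used, other scalings and filters, a replicate block and leaving out each library were alternatives. No 2 libraries agreed within sampling noise (chi-square over degrees of freedom 5.61 to 31.2). The count tests were tested on simulated data. The members and gene lists were chosen with earlier results of these data known. All 9 members were named, with every receptor, JAK-STAT/IRF and ISG15 conjugation gene (except 1 that is not reported here), the called genes and the 4 genes with the highest CPM of other lists, the 10 genes most like the mean of the 9, and *Ism1*. Promoter windows came from RefSeq (GRCm38.p6), and shared transcript windows were counted over GENCODE transcripts with Python 3.11.15.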

Additional observations from a re-analysis of the deposited data

How the results depend on the processing

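The number of the 9 genes that passed was 0 under RLE size factors, library totals, a filter of 0.5 CPM in at least 3 libraries, the replicate block, an adjusted p under 0.05 and a minimum of 2-fold. It was 1 (*Ifit2*) with DESeq2 and with no filter on low counts, and 0 to 1 when each library was left out. Over all genes, 882 passed, against 1632 with no filter, 455 at an adjusted p under 0.05, 106 with at least 2-fold and 150 to 1470 with a library left out. In the pathway lists 3 of 134 tested genes passed, where 4.72% of all genes did. With DESeq2 5 of 134 passed, where 6.88% of all genes did. The count was 6 of 138 with no filter, 1 at an adjusted p under 0.05 and 0 with at least 2-fold. With a library left out it was 0 to 9 of 134. The 9 came without WT replicate 1, where 3.62% of all genes passed. The difference in the mean of the 9 genes was 0.0812 to 0.275 with a library left out. With a library left out, *Usp18* ranged from −0.072 to 0.050 (above 0 without WT replicate 1, 0.050, and without ISM1-/- replicate 3, 0.043), *Rsad2* from −0.011 (without WT replicate 2) to 0.43, *Isg15* from −0.0078 to 0.35 and *Oasl2* from −0.0088 to 0.25, the lowest both without WT replicate 3, as log2 fold changes. The cause was not tested. The log2 fold change was above 0 in 95 of 108 pairs of gene and setting. All settings reuse the same 6 libraries, so these pairs are not separate observations and add no support. The labels do not state that replicate numbers pair the libraries. Correlations of deviations from the genotype means were −0.0275 to 0.0622 for same-numbered libraries and −0.0936 to 0.085 for differently numbered ones. So few correlations cannot decide whether the libraries were paired. With the number as a block 1105 of 18689 genes passed, 0 of the 9 and 6 of 134 in the pathway lists. Searching the ISRE core without its last base, an alternative added after the data were seen, left 5 genes with a match. With 3 libraries a genotype, the 95% intervals of the 9 fold changes reached from 0.827 to 1.49.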
